A study of Mus musculus with 4 samples.

Results

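The genes of the actin cytoskeleton and its contractile and adhesion machinery were followed in MC38 cells, a mouse colon carcinoma line, with and without the transcription factor subunit CBFβ. The 41 genes were taken by symbol from a fixed list of actins, actin-binding proteins, myosin II chains and focal-adhesion proteins that includes the transgelin Tagln2 and the PDZ-LIM protein Pdlim1, and all 41 were found among the 26322 genes of the table. Control cells (sgNT, labelled WT) were electroporated with Cas9 and a non-targeting guide, and CBFβ-deficient cells (sgCbfb, labelled CbfbKO) with Cas9 and a Cbfb guide. RNA was taken at least 1 week later, and 2 libraries per group were made. No cloning step is described for the edited cells, and all sgCbfb cells carry the same single guide. Nothing says that the libraries of a group came from separate electroporations, so the spread between them may be technical. The p-values rest on that spread, which limma estimates for each gene largely from other genes of similar level.

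Actin filaments are built from actin monomers that are held in reserve by thymosins and profilin and recycled by cofilin. Tropomyosins, calponins and caldesmon line the filaments, alpha-actinins and filamins link them to each other, and myosin II pulls on them. At focal adhesions talin, vinculin, paxillin and zyxin join the filaments to integrins, while ezrin, radixin and moesin join them to the plasma membrane. Many of these genes are known targets of serum response factor (SRF), which binds a DNA element called the CArG box and is activated when the pool of free actin monomer shrinks.

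Libraries were made by 3′ mRNA sequencing, which counts transcript ends, so that levels of different genes can be set side by side without correction for length. The deposited values are log2 CPM, read counts scaled to the size of the library, and whole reads could be recovered from them, between 3189035 and 3907936 per library. Cbfb, the targeted gene, had 295 and 285 reads in sgNT cells and 125 in each sgCbfb library, that is, -1.27 in log2 fold change (standard error, SE, 0.12, limma adjusted p = 1.76e-07). The defining epithelial markers were at or near 0: the 10 genes followed, Epcam, Cdh1 and keratins among them, summed to between 5 and 7 reads per library and 4 of them had no read in any library. Of 7 smooth muscle markers only Smtn was well covered, with 227 to 248 reads, and no other had more than 5 reads in a library. Of 8 fibroblast markers 6 had reads and 5 passed the low-value filter, and the list summed to 631 and 576 reads in sgNT and 531 and 464 in sgCbfb. Col3a1 was at 114 and 106 CPM in sgNT and 55.5 and 61.8 in sgCbfb cells (limma adjusted p = 2.46e-06), and Dcn was at 32.4 and 34.5 against 29.7 and 29.8 CPM and was not past the threshold used below. Pdgfra was at 35.6 and 27.3 against 43.2 and 47.7 CPM, and Col1a1 and Pdgfrb, with at most 16 reads, were also higher in CPM in both sgCbfb libraries. Their part in the results was not tested. Leukocyte and endothelial markers summed to at most 8 reads per library. In bulk RNA a smaller number of cells of one kind and less RNA per cell cannot be told apart.

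The promoters of the set are shown first, because a CArG box was frequent among them. Promoter sequences (RefSeq, GRCm38.p6) were matched by symbol for 38 of the 41 genes, and the 250 bases before the start were searched on both strands. A CArG box (a pair of C, a run of A or T, a pair of G) was present in 7 of these 38 genes (18.4%), against 1.62% of the 27025 genes with a promoter sequence. The 8 boxes are printed 5′ to 3′ along the gene's strand, each in capitals within the 10 bases on either side:
Vcl, chr14:20929161-20929190, plus strand: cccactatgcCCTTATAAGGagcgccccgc
Cnn2, chr10:79988534-79988563, plus strand: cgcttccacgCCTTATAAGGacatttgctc
Lima1, chr15:99820177-99820206, minus strand: ctcactttgtCCTTATAAGGctatcctgtt
Actg1, chr11:120348566-120348595, minus strand: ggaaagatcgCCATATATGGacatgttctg
Myl6, chr10:128493040-128493069, minus strand: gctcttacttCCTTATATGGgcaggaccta
Myl9, chr2:156775293-156775322, plus strand: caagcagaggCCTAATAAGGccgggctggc
Srf, chr17:46556225-46556254, minus strand: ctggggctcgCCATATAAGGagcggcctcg
Srf, chr17:46556205-46556234, minus strand: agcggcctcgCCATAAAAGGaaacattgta

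Vcl, Cnn2 and Lima1 carried the same 10 letters, CCTTATAAGG. The box began 227 bases before the start in Vcl and 56 in Cnn2. In Lima1 it began 47 bases before a start that lies inside the gene, which reaches to position 99875456. Myl6 had a further start whose window held no box. The RUNX core motif TGTGGT, the site of the factors that CBFβ partners, was present in 4 of the 38 genes (10.5%), against 15.9% of all genes with a promoter sequence. The TEAD motif GGAATG was present in 11 (28.9%), against 14.4%. A CArG box and a TEAD motif can share letters and were then counted under both, and a match is a run of letters, not a measured binding site. The Vcl promoter held both a CArG box and a TEAD motif, which are in capitals in this stretch of chr14:20929148-20929277 on the plus strand, and Cnn2 held the CArG box alone, shown within chr10:79988440-79988569 on the plus strand:
Vcl: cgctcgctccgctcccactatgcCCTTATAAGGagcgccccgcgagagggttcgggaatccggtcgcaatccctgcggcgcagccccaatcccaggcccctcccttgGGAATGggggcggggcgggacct
Cnn2: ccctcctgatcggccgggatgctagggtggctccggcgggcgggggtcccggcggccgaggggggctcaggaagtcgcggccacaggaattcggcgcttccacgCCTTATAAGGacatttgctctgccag

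To ask how loss of CBFβ was accompanied by changes in the cytoskeletal transcripts, sgCbfb and sgNT libraries were compared with limma across all 12207 genes that passed the low-value filter (2 or more libraries at 0 log2 CPM or above), with p-values adjusted by the Benjamini-Hochberg method and 0.05 as the threshold. Of the 41 genes 36 passed the filter. Of these 9 (25%) were past the threshold, against 2.83% of all genes tested. The set includes Tagln2 and Pdlim1 and was chosen with earlier results of these data known, so its shares are not an independent test. Tmsb4x, Pdlim1, Tagln2, Ezr, Tpm2 and Lasp1 rose in sgCbfb cells (6 of 36, against 1.57% of all genes tested), while Tpm1, Vcl and Cnn2 fell (3 of 36, against 1.25%). Most of the set is abundant, and abundant genes are more often past the threshold. Among the 4863 genes with a mean of at least 5 log2 CPM, 4.22% were past it, against 9 of 35 genes of the set (25.7%). An unadjusted p-value under 0.05 was found for 18 of the 36, against 14.9% of all genes tested. The groups did not overlap for 24 of the 36 (66.7%), against 44.1% of all genes tested, and the median log2 fold change was 0.093, against 0.039 over all genes. Every one of the 9 calls needed both sgCbfb libraries. With either sgCbfb library left out, limma called 0 of the set and 0 genes in all, although an unadjusted p-value under 0.05 was found for 13 genes of the set (1104 of all 12207) without sgCbfb replicate 1 and for 17 (1169 of all) without sgCbfb replicate 2. The adjusted p-values of the 9 genes then lay between 0.223 and 0.551. Without sgNT replicate 1 there were 3 higher and 2 lower genes of the set (115 and 86 of all 12207), and without sgNT replicate 2 there were 4 and 2 (104 and 75 of all). Tmsb4x, Tagln2, Tpm1 and Vcl were called in both of these.

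**Figure D1:**
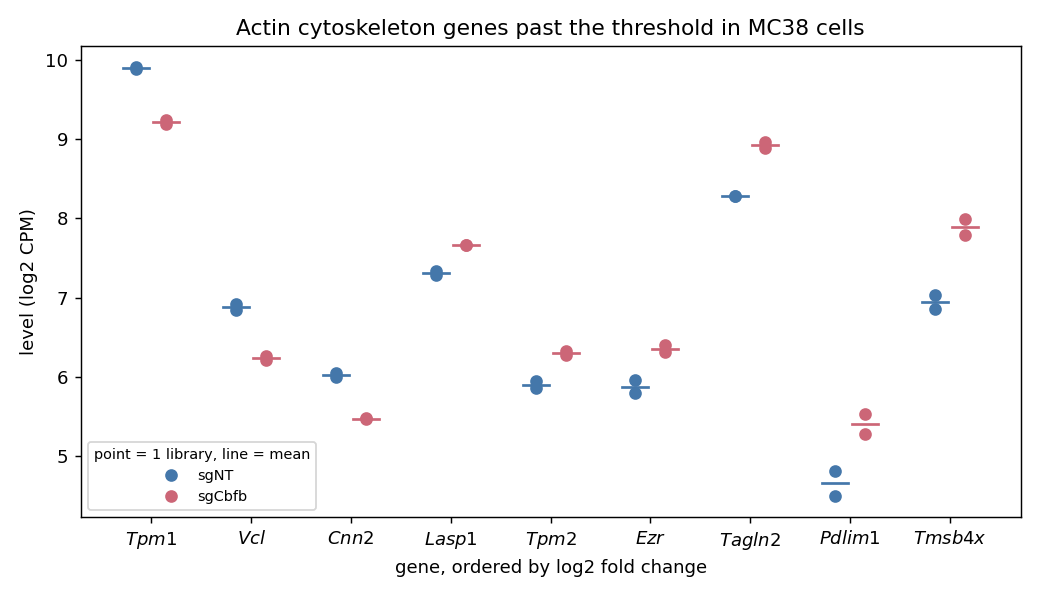
Level in log2 CPM of the 9 genes past the threshold, 1 point per library and a line at each group mean, for sgNT and sgCbfb cells. In each gene the pair of sgCbfb libraries lies wholly below (Tpm1, Vcl, Cnn2) or wholly above (the other 6) the sgNT pair.

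**Figure D2:**
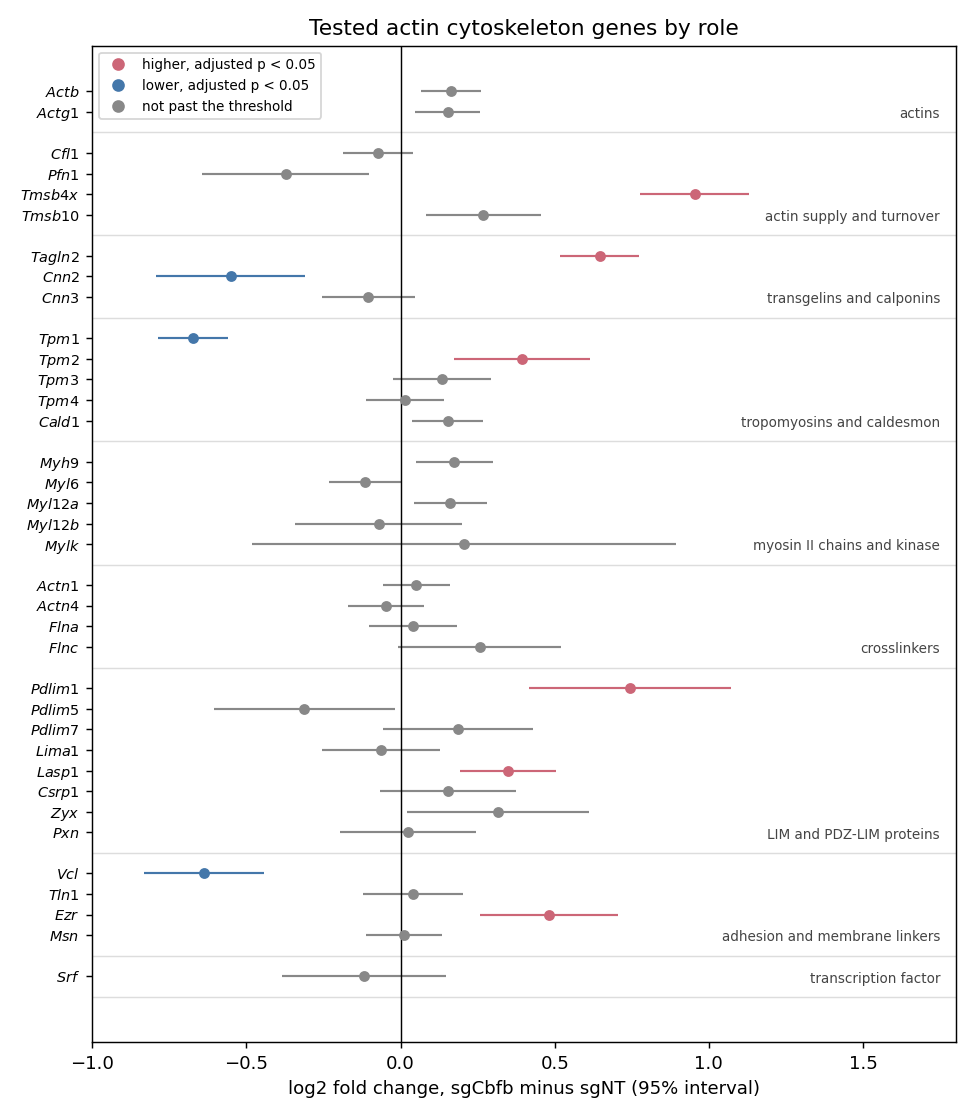
Log2 fold change of sgCbfb over sgNT for the 36 tested genes, grouped by role, with 95% confidence intervals from limma. The 6 genes that rose and 3 that fell are coloured, and the remaining 27 lie between -0.37 (Pfn1) and 0.32 (Zyx).

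The actins themselves were the most abundant of the set. Actb, the cytoplasmic beta-actin, was at 12.64 and 12.56 log2 CPM in sgNT and at 12.76 and 12.77 in sgCbfb cells. Actg1, the gamma-actin, was at 10.70 and 10.76 in sgNT and at 10.92 and 10.85 in sgCbfb cells. For both, each sgCbfb library was above each sgNT library, but the log2 fold changes of 0.16 and 0.15 were not past the threshold (limma adjusted p = 0.0622 and 0.119). Actb was past it with a minimum of 5 CPM (limma adjusted p = 0.0278). In limma-voom on the recovered reads both were past it, with adjusted p-values of 4.96e-06 for Actb and 0.00707 for Actg1, or 0.000195 and 0.0268 with median scaling. Together these genes took between 42.8% and 46.1% of the reads of the whole set, and the set took 1.82% and 1.81% of all reads in sgNT and 1.93% and 1.91% in sgCbfb cells. Acta2, the smooth muscle actin, had 0 reads in each sgNT library and 0 and 1 in sgCbfb cells. A count of 0 allows up to 0.883 and 0.900 CPM in the sgNT libraries (3 reads, counting error only). Actb and Actg1, like Pfn1, Cfl1 and the thymosins, have many near-identical pseudogene copies, so that their reads may have been divided among copies.

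Among the genes that supply and recycle actin monomers, Tmsb4x, which encodes the monomer-sequestering peptide thymosin beta-4 (chromosome X, 167207093 to 167209315, minus strand, GRCm38), had the largest rise of the 36 tested genes. It had 390 and 434 reads in sgNT and 994 and 706 in sgCbfb cells, or 115 and 130 against 254 and 221 CPM. The mean log2 CPM went from 6.94 ± 0.13 (SD, n = 2) to 7.89 ± 0.14 (SD, n = 2), that is, 0.95 in log2 fold change (SE 0.086, limma adjusted p = 6.83e-08), which is 1.94-fold. With each library left out in turn it stayed between 0.85 and 1.05. Its relative Tmsb10 was at 6.65 and 6.61 log2 CPM in sgNT and at 6.84 and 6.96 in sgCbfb cells, with a log2 fold change of 0.27 that was not past the threshold (limma adjusted p = 0.128). Tmsb4x made up 53.4% (95% Wilson interval 49.8 to 57.0) and 57.3% (53.7 to 60.7) of the reads of both thymosins in sgNT, and 69.1% (66.6 to 71.4) and 64.1% (61.2 to 66.8) in sgCbfb cells. These intervals cover counting error only, while over 9520 genes (10 or more reads in each of the libraries) the spread within groups was 1.58 (sgNT) and 2.15 (sgCbfb) times counting noise (chi-square per degree of freedom). Pfn1, which encodes the monomer-binding protein profilin-1, was at 6.71 and 6.95 log2 CPM in sgNT and at 6.16 and 6.75 in sgCbfb cells. One sgCbfb library thus lay within the sgNT range, and the log2 fold change of -0.37 was not past the threshold (limma adjusted p = 0.149), although it was with a minimum of 5 CPM (limma adjusted p = 0.0156), in limma-voom on the recovered reads (0.0415, or 0.0455 with median scaling) and with the replicate block (0.00773). The log2 fold change of Pfn1 was -0.08 without sgCbfb replicate 1 and -0.67 without sgCbfb replicate 2. Cfl1, the severing protein cofilin-1, had between 4259 and 5411 reads per library and a log2 fold change of -0.07 with an interval of -0.19 to 0.04.

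Transgelins and calponins are related proteins that bind along actin filaments. Tagln2, the transgelin of non-muscle cells (chromosome 1, 172500047 to 172507380, plus strand, GRCm38), had 1052 and 1035 reads in sgNT and 1941 and 1513 in sgCbfb cells, or 310 CPM in each sgNT library and 497 and 474 CPM in sgCbfb cells. The sgNT libraries were nearly identical and both sgCbfb libraries were above them. Tagln2 rose by 0.65 on the log2 scale (SE 0.062, limma adjusted p = 1.84e-07), and by 0.61 to 0.68 with each library left out. Tagln2 made up at least 99.8% of transgelin reads in every library, because Tagln, the smooth muscle transgelin, had only 1 or 2 reads in any library and was not tested. Cnn2, a calponin of non-muscle cells (chromosome 10, 79988584 to 79996062, plus strand), moved the other way. It had 63.6 and 65.4 CPM (216 and 218 reads) in sgNT and 43.8 and 43.9 CPM (171 and 140 reads) in sgCbfb cells, a fall to 68.3% of the sgNT level (log2 fold change -0.55 with SE 0.12, limma adjusted p = 0.00633). The fold change lay between -0.57 and -0.53 with each library left out, but the call was lost without sgNT replicate 1 (limma adjusted p = 0.0556) or sgNT replicate 2 (0.0868), and with quantile normalization (0.0732). Cnn3, the more abundant calponin, was at 7.67 and 7.74 log2 CPM in sgNT and at 7.61 and 7.60 in sgCbfb cells, with a log2 fold change of -0.10 (limma adjusted p = 0.562). The smooth muscle calponin Cnn1 had at most 1 read in a library.

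The tropomyosins, which coat actin filaments and set which other proteins can bind them, changed unequally. Tpm1 (chromosome 9, 67022590 to 67049406, minus strand) had 3197 and 3192 reads in sgNT and 2365 and 1866 in sgCbfb cells, or 941 and 957 against 605 and 585 CPM. Replicates lay close to each other and the groups were well apart. The mean log2 CPM went from 9.89 ± 0.017 (SD, n = 2) to 9.22 ± 0.034 (SD, n = 2), a fall to 62.7% (log2 fold change -0.67 with SE 0.055, limma adjusted p = 1.61e-08). Tpm2 (chromosome 4, 43514711 to 43523765, minus strand) was the least abundant of the family, at 5.86 and 5.95 log2 CPM in sgNT and 6.27 and 6.32 in sgCbfb cells. It rose by 0.39 on the log2 scale (SE 0.11, limma adjusted p = 0.0439), close to the threshold. This call was lost without sgNT replicate 1 (limma adjusted p = 0.224), without sgNT replicate 2 (0.11), with quantile normalization (0.195), with median centring (0.0576) and in voom with median scaling (0.066), while the fold change lay between 0.35 and 0.44. Tpm3 and Tpm4 had log2 fold changes of 0.13 and 0.01 and were not past the threshold. Tpm1 was thus 55.7% and 56.3% of tropomyosin reads in sgNT, with no 95% Wilson limit under 54.4%, and 42.3% and 43.5% in sgCbfb cells, with none over 45.0%. The summed tropomyosin level was 1689 and 1699 CPM in sgNT and 1431 and 1344 CPM in sgCbfb cells. Cald1, caldesmon, which also lies along filaments, was at 9.68 and 9.69 log2 CPM in sgNT and 9.90 and 9.78 in sgCbfb cells, and its log2 fold change of 0.15 was not past the threshold (limma adjusted p = 0.165).

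**Figure D3:**
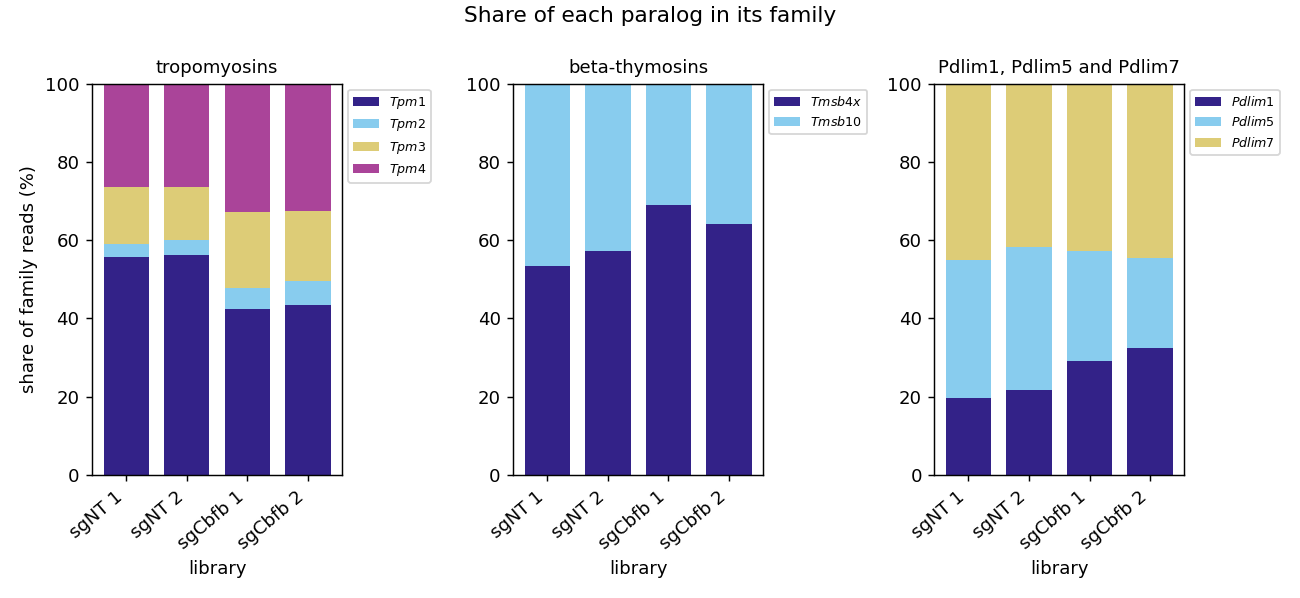
Share of reads in percent that each paralog took within the tropomyosins, the beta-thymosins and the 3 Pdlim genes of the set, 1 bar per library. Tpm1 takes 55.7% and 56.3% of tropomyosin reads in the sgNT and 42.3% and 43.5% in the sgCbfb libraries, and Tmsb4x and Pdlim1 take larger shares of theirs in both sgCbfb libraries.

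Of the 7 genes of the motor, the myosin II chains and their kinase, 5 were tested. Limma called 0 of these 5, near the 2.83% of all genes tested. An unadjusted p-value under 0.05 was found for 2 of the 5, Myh9 and Myl12a, against 14.9% of all genes tested. Myh9, the heavy chain of non-muscle myosin IIA, was at 8.65 and 8.64 log2 CPM in sgNT and at 8.82 in each sgCbfb library (log2 fold change 0.18, limma adjusted p = 0.14). Myh10, the heavy chain of non-muscle myosin IIB, had 0 and 1 reads in sgNT and 1 and 0 in sgCbfb cells, so that these cells carried Myh9 as the only one of the pair with measurable reads. The regulatory light chain was Myl12a, with between 91.4% and 94.0% of the reads of Myl12a, Myl12b and Myl9, and the smooth muscle light chain Myl9 had a single read in 1 sgNT library. Mylk, the light chain kinase, had between 14 and 26 reads, and its log2 fold change of 0.21 has an interval of -0.48 to 0.89, so that a change was not detectable at this depth.

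Actn1 and Actn4, the alpha-actinins of non-muscle cells, and Flna, filamin A, had log2 fold changes of 0.05, -0.05 and 0.04. Of the 4 crosslinker genes limma called 0, with 0 at an unadjusted p-value under 0.05, against 2.83% and 14.9% of all genes tested. The interval was -0.06 to 0.16 for Actn1, -0.17 to 0.08 for Actn4 and -0.10 to 0.18 for Flna. Flnc, filamin C, was at 5.70 and 5.66 log2 CPM in sgNT and at 6.13 and 5.74 in sgCbfb cells (limma adjusted p = 0.351).

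Of the 8 genes with LIM or PDZ and LIM domains, which dock other proteins on filaments, 2 rose, against 1.57% of all genes tested, and 6 were not past the threshold. Pdlim1 (chromosome 19, 40221173 to 40271842, minus strand), which encodes an alpha-actinin partner, had 75 and 92 reads in sgNT and 149 and 146 in sgCbfb cells. The mean log2 CPM went from 4.66 ± 0.22 (SD, n = 2) to 5.40 ± 0.18 (SD, n = 2), that is, 0.75 in log2 fold change (SE 0.16, limma adjusted p = 0.00656), which is 1.68-fold. The groups did not overlap, but replicates differed more than for any other gene past the threshold. Without sgNT replicate 1 the log2 fold change was 0.59 and the call was lost (limma adjusted p = 0.12), and quantile normalization also lost it (0.194). Lasp1, which encodes a LIM and SH3 domain protein of the cell edge (chromosome 11, 97799000 to 97838764, plus strand), was at 7.34 and 7.29 log2 CPM in sgNT and at 7.66 in each sgCbfb library. It rose by 0.35 on the log2 scale (SE 0.076, limma adjusted p = 0.00764). That call was lost without sgNT replicate 2 (limma adjusted p = 0.105) and with quantile normalization (0.08). Pdlim5 was at 5.33 and 5.57 log2 CPM in sgNT and at 5.24 and 5.04 in sgCbfb cells, opposite in direction to Pdlim1, with an adjusted p of 0.294 from limma. Pdlim1 took 19.6% and 21.6% of the reads of Pdlim1, Pdlim5 and Pdlim7 in sgNT and 29.0% and 32.4% in sgCbfb cells. Zyx, the focal-adhesion protein zyxin, was at 5.19 and 5.02 log2 CPM in sgNT and at 5.54 and 5.30 in sgCbfb cells (limma adjusted p = 0.29). The other 4 genes, Pdlim7, Lima1, Csrp1 and Pxn, had log2 fold changes between -0.06 and 0.19.

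Of the 4 genes that tie filaments to membrane and matrix, Ezr rose, Vcl fell and Tln1 and Msn were not past the threshold (2 of 4 called, against 2.83% of all genes tested). Vcl, which encodes vinculin and carries the CArG box and TEAD motif shown above (chromosome 14, 20929398 to 21033676, plus strand), had 409 and 380 reads in sgNT and 299 and 235 in sgCbfb cells, or 120 and 114 against 76.5 and 73.7 CPM. It fell to 64.3% of the sgNT level (log2 fold change -0.64 with SE 0.094, limma adjusted p = 0.000105), and its log2 fold change lay between -0.68 and -0.60 with each library left out. Its last 500 bases overlap an exon of Ap3m1 on the other strand, which had 77 to 118 reads per library and a log2 fold change of 0.39 (limma adjusted p = 0.229), and whether the counting used strand is not given in the sources used here. Tln1, talin, the protein that recruits vinculin to integrins, was at 7.34 and 7.33 log2 CPM in sgNT and at 7.41 and 7.34 in sgCbfb cells, with an interval of -0.12 to 0.20 for the log2 fold change. Ezr, ezrin (chromosome 17, 6738041 to 6782784, minus strand), was at 5.79 and 5.96 log2 CPM in sgNT and at 6.40 and 6.31 in sgCbfb cells. It rose by 0.48 on the log2 scale (SE 0.11, limma adjusted p = 0.0104), but the call was lost without sgNT replicate 1 (limma adjusted p = 0.144) and with quantile normalization (0.144). Msn, moesin, its far more abundant relative, had between 1517 and 1954 reads and a log2 fold change of 0.01 with an interval of -0.11 to 0.14. Ezr accordingly went from 5.87% and 6.24% to 8.19% and 8.32% of the reads of ezrin, moesin and radixin.

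Srf itself was at 5.52 and 5.47 log2 CPM in sgNT and at 5.38 in each sgCbfb library, a log2 fold change of -0.12 with an interval of -0.38 to 0.15 (limma adjusted p = 0.745). Of the 7 genes with a CArG box in the promoter window 6 were tested. Their log2 fold changes were -0.64 for Vcl, -0.55 for Cnn2, -0.12 for Srf, -0.11 for Myl6, -0.06 for Lima1 and 0.15 for Actg1. Only Vcl and Cnn2 were past the threshold, both lower. That is 2 of 6, against 9 of 36 (25%) in the whole set and 2.83% of all genes tested. Past it and lower were 3 of 36 in the set and 1.25% of all genes tested. Tpm1, which also fell, had no CArG box in its window but held a TEAD motif 56 bases before the start. Of the 6 genes that rose 0 had a CArG box in the window, against 1.39% of the tested genes with a promoter sequence, so that a count of 0 in 6 is near that share. Tagln2, with 2 matches, was the 1 of the 6 with a TEAD motif (12.6% of tested genes), and Tmsb4x the 1 with the RUNX core motif (12.5%), 114 bases before the start, and both counts are near those shares. These are counts of letters in a window of 250 bases at the starts that RefSeq gives, and other starts were not searched.

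A further 131 genes of the same machinery were followed, of which 114 passed the filter. Of these 4 rose and 2 fell (5.26% called, against 2.83% of all genes tested). The group of 23 tested integrin and focal-adhesion genes held 4 of the 6, the 20 genes of branched nucleation 1 and the 22 of capping, severing and turnover 1. Limma called 0 of 12 tested crosslinkers and bundlers, with 3 at an unadjusted p-value under 0.05, and 0 of 9 further paralogs, with 0, against 2.83% called and 14.9% under 0.05 of all genes tested. Itga6, the laminin receptor subunit alpha-6, had 197 and 207 reads in sgNT and 438 and 386 in sgCbfb cells, that is, 0.95 in log2 fold change (SE 0.099, limma adjusted p = 6.51e-07). Itgav, the alpha-v subunit, rose by 0.50 (limma adjusted p = 0.0313) and Itgb1, the beta-1 subunit, by 0.23 (0.0355). Src, the tyrosine kinase that signals from focal adhesions, fell from 260 and 229 reads to 183 and 135, a log2 fold change of -0.70 (limma adjusted p = 0.000574). Enah, a filament elongation factor of the same family as Vasp, fell from 5.62 and 5.38 to 4.86 and 4.91 log2 CPM (limma adjusted p = 0.014). Cttn, cortactin, which stabilises branched actin at the cell edge, rose by 0.33 on the log2 scale (limma adjusted p = 0.00805). With either sgCbfb library left out limma called 0 of these genes. Without sgNT replicate 1 only 1 higher and 1 lower gene remained, and Itgav, Itgb1, Cttn and Enah lost their calls, and without sgNT replicate 2 there were 1 higher and 2 lower.

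**Figure D4:**
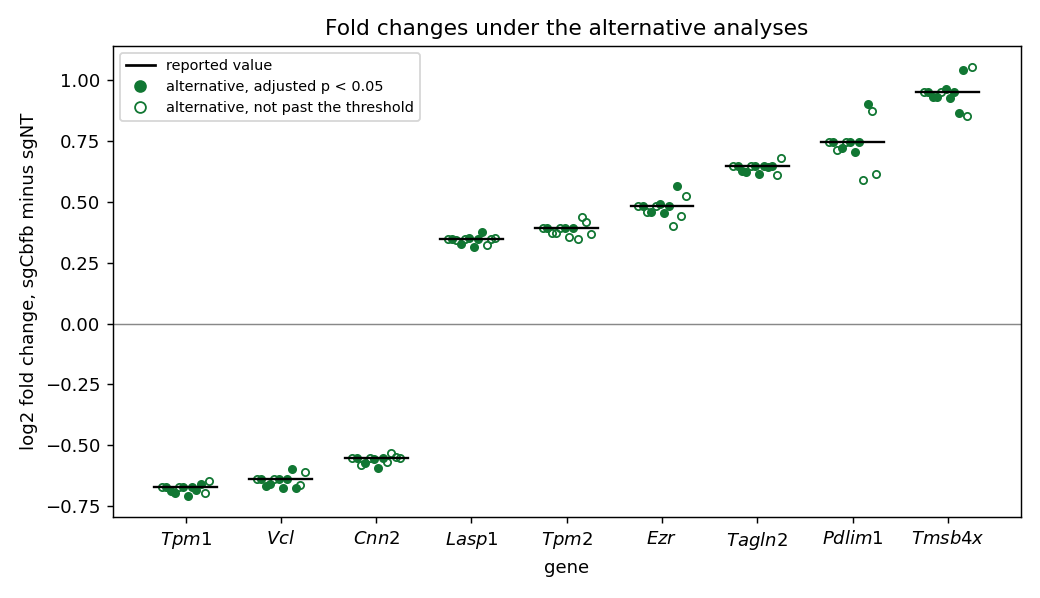
Log2 fold change of the 9 genes past the threshold under the reported analysis (line) and 12 alternatives (points), filled where the adjusted p-value is under 0.05. Each gene keeps its sign in all 12, while the number past the threshold ranges from 3 for Tpm2 to 8 for Tpm1, Vcl, Tagln2 and Tmsb4x.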

How the data were processed

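Per the study's methods, cutadapt (1.9) was used for trimming, HISAT2 (2.1.0) for alignment to mouse build GRCm38 (mm10), and featureCounts for read counts per gene. The authors deposited log2 CPM values, 1 column per library, scaled to library totals. The values imply a prior count of 2 added before the log, and undoing it gave reads that were whole to within 0.1 in every case (100% in each library). The annotation, the use of strand and the handling of reads that match several genes are not given in the sources used here.

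Differences were tested with limma 3.58.1 in R 4.3.3 (mean-variance trend, two-sided, Benjamini-Hochberg over 12207 genes), the counterpart on log2 values of the study's voom-limma. With 2 libraries against 2 an exact permutation test cannot go below 0.333. In simulated libraries with log2 changes of 1 the test recovered 180 of 200 changed genes (90%) among 12233 tested, with 4 false calls. The changed genes were drawn from well-covered genes, and noise beyond counting error was set to a fixed level for all genes. No gene of the actin set changed by as much as 1, so this share does not give the power for the set. Library shares have Wilson intervals at 95% from scipy 1.17.1, and intervals and floors cover counting error only. Positions are from GENCODE M21 (GRCm38), matched for 41 genes. By rule, values were given for genes past the threshold, their paralogs, the 3 largest non-overlapping changes below it and genes under the filter. Values of Actb, Actg1, Pfn1, Cald1, Myh9, Flnc, Tln1 and Srf were added after they had been seen. Those given for Cfl1, Actn1, Actn4, Flna, Mylk, Myl6 and Lima1 are also outside this rule. The members and lists were chosen with earlier results of these data known. Alternatives were other filters, scalings and variance models, voom on recovered reads, the replicate number as a block, and each library left out. The results of 1 group of the further pathway genes are not reported here.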

Additional observations from a re-analysis of the deposited data

How the results depend on the processing

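All 16 genes whose fold change was refitted (the 9 of the set, 6 further pathway genes and Cbfb) kept their sign in all 192 refits, and 90 of the refits were no longer past the threshold. The causes were not tested. Many of these refits could not have changed a sign. With another filter, without the trend or with the replicate block the fold change itself stays the same. With 1 library left out it cannot reverse for a gene whose groups do not overlap, as for the 9 genes of the set and Cbfb. Against 192 higher and 153 lower genes in all, there were 2 and 53 without the low-value filter, 300 higher with a minimum of 5 CPM, 39 and 44 after quantile normalization, 0 and 0 when no mean-variance trend was fitted (1461 at an unadjusted p under 0.05), and 236 lower in voom with median scaling. Leaving out each library gave 0 to 115 higher and 0 to 86 lower genes. Against 6 higher and 3 lower genes of the actin set, there were 0 and 0 without the filter (13 at an unadjusted p under 0.05), 2 higher with quantile normalization and 0 and 0 without the trend (9 at an unadjusted p under 0.05). Leaving out each library gave 0 to 4 higher and 0 to 2 lower. Against 4 higher and 2 lower pathway genes, there were 0 and 0 without the filter, and again without the trend, 7 higher with a minimum of 5 CPM, 1 and 0 with quantile normalization, 4 lower in voom with median scaling, and 0 to 1 higher and 0 to 2 lower with a library left out. The share of higher genes among calls was 55.7%, 48.4% with median centring, 47.0% with quantile normalization and 42.6% in voom with median scaling. Cbfb kept a log2 fold change of -1.27 without the filter and without the trend but lost its call (adjusted p = 0.29 and 0.115 from limma), and lay between -1.41 and -1.12 with each library left out.

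With the replicate block 320 genes were higher, and the calls of the actin set were 6 higher and 4 lower, with all 9 genes kept. What libraries with the same number have in common is not in the labels, and their deviations were not correlated across genes (-0.0042). No alternative with another pseudocount was run on the deposited log2 values. At this depth 1 read is worth 0.256 to 0.314 CPM, so Acta2, Tagln, Cnn1, Myh10 and Myl9 could not be compared.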
